A study of Mus musculus with 9 samples.

Results

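The nuclear genes for subunits of respiratory complexes II, III, IV and V, with cytochrome c, were followed in sorted mouse erythroblasts during iron deficiency. The members were the genes Sdha, Sdhb, Sdhc, Sdhd, Cyc1 and Cycs and every gene whose symbol begins with Uqcr, Cox4i, Cox5, Cox6, Cox7, Cox8 or Atp5. This rule took 49 genes of the 20018 named on the array, measured by 74 of its 55681 probes: 4 of complex II, 9 of complex III, cytochrome c, 18 of complex IV and 17 of complex V. Of the 49 genes, 47 were tested, having been well above background throughout 1 or more of the 3 groups. The other two, Cox7b2 and Cox8c, code for testis forms of complex IV subunits: Cox7b2 was well above background on 0 of 9 arrays, and Cox8c on 1, a 7 week array.

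The arrays came from wild-type C57BL/6J mice labelled female, whose bone marrow erythroblasts were sorted by a gate named subset II. The design had 3 groups of 3 samples: mice on a normal diet, mice kept on a low iron diet for 3 weeks after weaning, and mice kept on it for 7 weeks after weaning. Replicates are described as biological; whether a sample was 1 animal or a pool, and the age of the normal diet mice, is not given in the sources used here. The series asks how iron deficiency anemia changes mitophagy, the removal of mitochondria, and gene expression in these cells.

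The respiratory chain sits in the inner mitochondrial membrane. Complex II takes electrons from succinate, complex III passes them to cytochrome c, complex IV hands them to oxygen, and complex V, the ATP synthase, uses the proton gradient that results to make ATP. Many of the electron carriers hold iron, as heme or in iron-sulfur clusters, and erythroblasts use their mitochondria to make heme for hemoglobin and lose them as they mature into red cells. The subunits studied here are coded in the nucleus; the mitochondrially encoded subunits, among them those that carry the hemes of complex IV, had no value in these data.

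A gene's level is given as log2 signal minus the 75th percentile of its array, so 0 is the brightness that 75% of the array's probes do not reach; it compares a gene with itself between arrays, not with other genes. A difference is a log2 fold change with the standard error (SE) of limma from 3 arrays in each group, and it passed where its Benjamini-Hochberg adjusted p over all 14506 genes tested was under 0.05. All 14 erythroblast markers on the array were detected on all 9 arrays. The 3 groups lay on 3 slides in separate scans, so slide and diet cannot be told apart. The 7 week arrays were dimmer, with 45.2% to 53.6% of spots well above background against 65.5% to 66.3% on normal diet and 56.8% to 70.8% at 3 weeks, and their 75th percentile was 791.7 to 1087 against 1499 to 1616 and 1677 to 1837. The E1A spike-in probes, which bind RNA added in the laboratory, stood at 4.44 to 5.35 relative to the 75th percentile at 7 weeks, against 0.5 to 1.74 on normal diet and 1.10 to 1.57 at 3 weeks; the part of this shift in the 7 week differences was not tested. Normal diet replicates 1 and 2 went against their female label, with Y-linked Eif2s3y at 5.12 and 4.82 and Xist at -5.59 and -5.24, against -3.77 and -0.73 on replicate 3. In sorted bulk samples, fewer cells of a type and less RNA per cell cannot be told apart.

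After 3 weeks of low iron diet, many of these subunit mRNAs were lower than on normal diet, with Atp5k of complex V, Uqcr10 of complex III and Cox6c of complex IV showing the largest falls. Of the 47 members tested, 19 fell and 0 rose, where 7.88% of all genes tested fell and 3.52% rose. The median difference was -0.96 over the members and -0.17 over all genes. The 3 week arrays lay wholly below the normal diet arrays for 42 members, an ordering found for 31.6% of all genes. After 7 weeks the picture differed: 14 members were higher than on normal diet and 1, Sdhd, was lower, where 10.7% of all genes tested were higher and 18.7% lower. The median at 7 weeks was 0.66 over the members and -0.26 over all genes. The 2 comparisons share the normal diet arrays. Set against 3 weeks directly, 34 members were higher at 7 weeks and 0 lower, where the shares of all genes were 17.6% and 19.6%, and the medians were 1.66 over the members and -0.13 over all genes. The 7 week arrays lay wholly above the 3 week arrays for 36 members and wholly below for 1, with 23.2% and 25.2% of all genes.

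**Figure D1:**
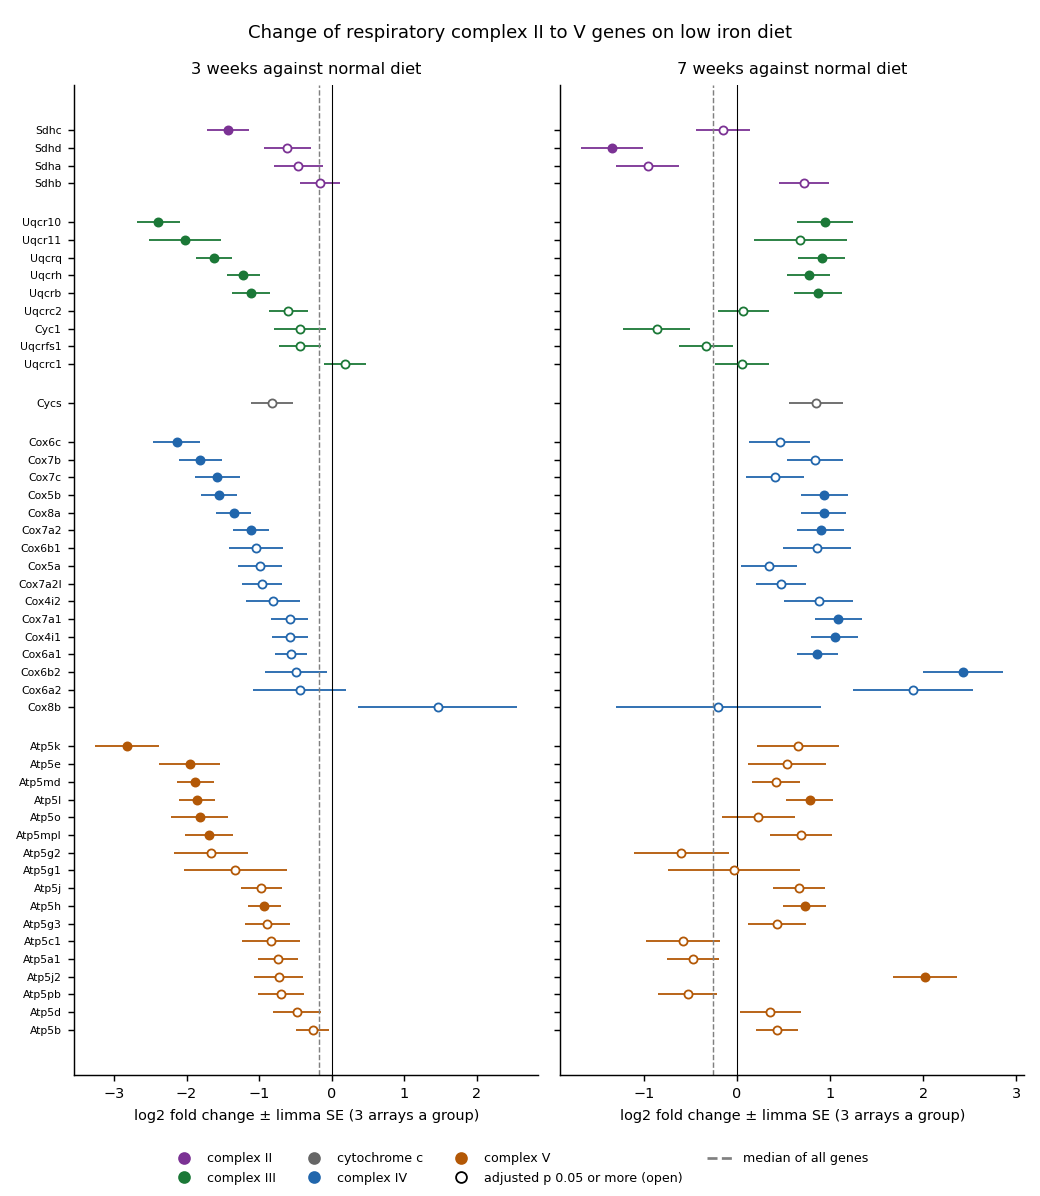
Log2 fold change of each of the 47 members tested (point) with its limma SE (bar), at 3 weeks (left) and 7 weeks (right) against normal diet; filled points passed at an adjusted p under 0.05, and the dashed line is the median of all genes. At 3 weeks all 19 filled points lie to the left of 0, and at 7 weeks 14 lie to the right; without scaling between arrays 3 of those 14 (Atp5h, Atp5l and Uqcrh) lie just to the left.

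The size of the 7 week rise rested on how arrays were scaled. Before scaling, the members' median difference at 7 weeks was -0.14 while that of all genes was -1.07, so the members kept nearly their normal diet signal on arrays where most genes were dimmer. Relative to the median of all genes, the members stood at 0.93 with the 75th percentile and at 0.42 with quantile normalization, which gives every array the same distribution of signals. The split of members called at 7 weeks was 14 higher and 1 lower with the 75th percentile, 3 and 2 with quantile normalization, and 2 and 8 without scaling. The all-gene median without scaling was -1.07, so those 8 lower calls are not read as particular to the members. Atp5j2 and Cox6b2 were higher under each of these scalings, and Sdhd lower. Cox7a1 was called higher with quantile normalization too (1.02). The 3 week fall kept its direction: all 19 genes were lower under quantile normalization (14 passed) and without scaling (12 passed). Of all genes, 9.81% and 6.66% passed at 3 weeks under these settings, in either direction. The 34 genes higher at 7 than at 3 weeks included 24 that passed with quantile normalization and 18 without scaling, where the splits were 24 higher and 3 lower, and 18 and 4.

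The 7 week count was split between bright and dimmer members. Of the 12 members whose mean signal was at least 20% of the scanner's saturation value, 7 were called higher at 7 weeks (58.3%). The median difference of these 12 before scaling was -0.05. Of the 35 dimmer members, 7 were called higher (20%) and 1 lower (2.86%), with a median before scaling of -0.34. Of all genes, 10.7% were higher and 18.7% lower. The share among all genes of like brightness is not given here. No spot was marked saturated on any array. Whether signal near the top of the range moved with these calls in another way was not tested.

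**Figure D2:**
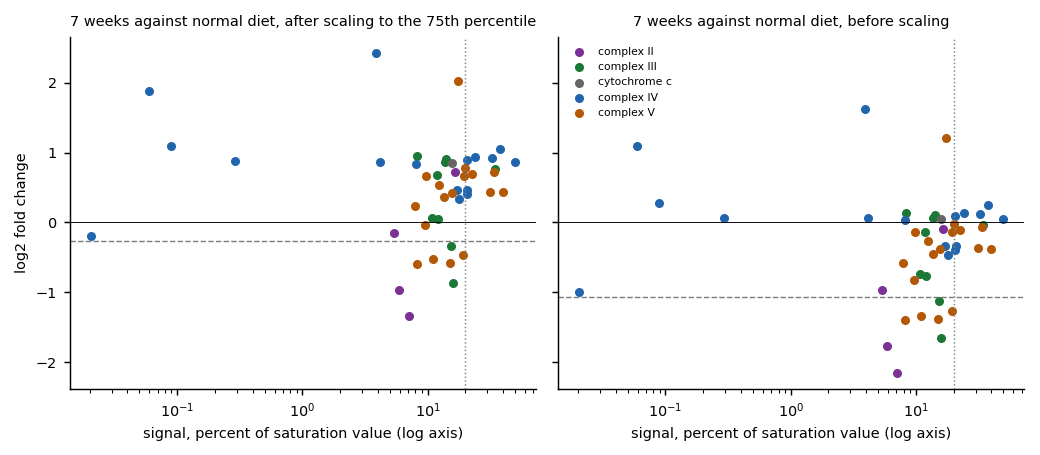
Log2 fold change at 7 weeks against normal diet (vertical) by mean signal in percent of the saturation value (horizontal, log axis) for the 47 members, after scaling to the 75th percentile (left) and before scaling (right); the dashed line is the median of all genes and the dotted line marks 20%. Before scaling, most members lie near or a little below 0, well above the all-gene median of -1.07.

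Promoters of the genes that lead each direction are printed here to show what letters stand before genes that moved together. They are the 250 bases before the transcription start as RefSeq gives it on assembly GRCm38.p6, 5′ to 3′ on the gene's own strand. Atp5k and Uqcr10 had the largest falls at 3 weeks, Cox6b2 the largest rise at 7 weeks, and Sdhd the fall at 7 weeks. Capitals mark the motif matches: in Atp5k (minus strand, chr5:108434400-108434649) a pair of overlapping matches to GCGCATG, the core of the site of Nrf1, 1 on each strand; in Cox6b2 (minus strand, chr7:4753095-4753344) a match to GGGCGGG, the Sp1 box; in Sdhd (minus strand, chr9:50603850-50604099) a match to CCGGAAG, a site of Ets factors such as Gabpa, on the opposite strand. The Uqcr10 stretch (minus strand, chr11:4704345-4704594) held no match to the motifs searched.
Atp5k: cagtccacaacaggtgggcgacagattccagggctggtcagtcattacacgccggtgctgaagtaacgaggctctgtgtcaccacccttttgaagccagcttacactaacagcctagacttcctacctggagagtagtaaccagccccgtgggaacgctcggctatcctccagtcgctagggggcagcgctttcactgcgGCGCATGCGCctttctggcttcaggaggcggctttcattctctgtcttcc
Uqcr10: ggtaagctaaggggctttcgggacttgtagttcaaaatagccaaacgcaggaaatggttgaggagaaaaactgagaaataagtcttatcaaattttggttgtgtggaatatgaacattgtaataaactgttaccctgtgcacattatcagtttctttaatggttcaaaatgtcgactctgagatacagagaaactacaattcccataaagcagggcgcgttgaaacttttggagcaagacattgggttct
Cox6b2: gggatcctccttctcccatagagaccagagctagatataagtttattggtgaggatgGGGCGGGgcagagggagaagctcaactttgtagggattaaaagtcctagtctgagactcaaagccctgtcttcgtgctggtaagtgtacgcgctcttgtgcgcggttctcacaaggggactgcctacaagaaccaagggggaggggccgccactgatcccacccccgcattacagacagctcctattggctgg
Sdhd: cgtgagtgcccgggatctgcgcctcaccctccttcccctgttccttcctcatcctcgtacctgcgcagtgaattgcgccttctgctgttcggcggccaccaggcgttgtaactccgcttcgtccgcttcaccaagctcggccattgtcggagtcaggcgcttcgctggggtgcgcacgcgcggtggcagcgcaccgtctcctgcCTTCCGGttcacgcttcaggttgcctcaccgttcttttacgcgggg

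The RefSeq table held 40 promoters of 37 members, and motifs were counted on both strands from 250 bases before to 50 after each start. The Nrf1 core GCGCATG was found in 9 of 40 (22.5%) of the members' promoters, in 3.91% of all 32851 promoters and in 4.8% of the 21263 of protein-coding genes. The Ets site CCGGAAG was found in 32.5%, 8.86% and 11.6%. For the Yy1 site AAGATGG the figures were 4 of 40, 6.34% and 6.24%, and for the Gata site AGATAAG 0 of 40, 3.04% and 2.64%. The Sp1 box GGGCGGG was in 30.0% of the members' promoters, above the 25.6% of all promoters and below the 33.9% of protein-coding ones. Among the 14 members with a promoter that fell at 3 weeks, 8 held the Ets site and 4 the Nrf1 core. The Sp1 box was in 2 of these 14, the Yy1 site in 1 and the Gata site in 0. Among the 22 tested members with a promoter that did not pass, 5 held the Ets site and 5 the Nrf1 core. The Sp1 box was in 9 of these 22, the Yy1 site in 3 and the Gata site in 0. A match describes letters only and was not tested against the changes in signal.

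Complex II is succinate dehydrogenase. At 3 weeks 1 of its 4 genes fell (25%, against 7.88% of all genes), with a median of -0.53. At 7 weeks 1 was lower (25%, against 18.7% of all genes), with a median of -0.56, or -1.36 before scaling. Each of these shares rests on 1 gene. Sdhc, a membrane anchor that helps bind heme b, was at 5.80, 5.86 and 5.21 on normal diet, at 4.06, 4.02 and 4.49 at 3 weeks and at 5.37, 5.29 and 5.76 at 7 weeks. The 3 week arrays were below both other groups, and Sdhc fell by 1.43 ± 0.29 (adjusted p = 0.0203) and was higher at 7 than at 3 weeks (1.28 ± 0.29, adjusted p = 0.0092). A second Sdhc probe changed less at 3 weeks (-0.52, adjusted p = 0.252 over probes) and between the low iron groups (0.50, adjusted p = 0.187 over probes). Sdhd, the other membrane anchor, was at 6.06, 5.46 and 5.83 on normal diet, at 5.29, 5.13 and 5.11 at 3 weeks and at 3.79, 4.72 and 4.81 at 7 weeks. Its groups did not overlap in any comparison. At 7 weeks Sdhd fell by 1.34 ± 0.33 (adjusted p = 0.0174), while its 3 week value of -0.61 ± 0.33 did not pass (adjusted p = 0.253).

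In the fit that gave the counts of members, the catalytic subunits of complex II did not pass against normal diet, though each did under some other setting. Sdha, the flavoprotein that oxidises succinate, was at 5.72, 5.29 and 5.56 on normal diet, at 5.17, 4.79 and 5.22 at 3 weeks and at 3.89, 4.73 and 5.06 at 7 weeks. Both low iron groups lay below normal diet, with differences of -0.46 ± 0.34 (adjusted p = 0.398) and -0.96 ± 0.34 (adjusted p = 0.0607). At 7 weeks Sdha passed without scaling (-1.77, adjusted p = 0.00814) and without 7 week replicate 3 (-1.21, adjusted p = 0.0309). It also passed where only probes well above background on all 9 arrays entered (-0.96, adjusted p = 0.0483). Sdhb, which holds the iron-sulfur clusters, was at 6.65, 6.69 and 6.37 on normal diet, at 6.01, 6.59 and 6.63 at 3 weeks and at 7.46, 7.14 and 7.26 at 7 weeks. The 3 week arrays overlapped normal diet (-0.16 ± 0.27, adjusted p = 0.73), and the 7 week arrays lay above both (0.72 ± 0.27 against normal diet, adjusted p = 0.0739). Sdhb was higher at 7 than at 3 weeks (0.88 ± 0.27, adjusted p = 0.0318), a difference that was -0.21 with quantile normalization and -0.09 without scaling. A second Sdhb probe gave 0.32 between these groups (adjusted p = 0.41 over probes). At 7 weeks against normal diet Sdhb was at -0.09 without scaling, the same sign as Sdhd (-2.15), where the median of all genes was -1.07. Their signs stayed opposite after normexp background correction (0.84 for Sdhb and -1.44 for Sdhd), where Sdhb passed (adjusted p = 0.0246). With quantile normalization Sdhd was at -1.07 and Sdhb stayed above 0.

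In complex III, the cytochrome bc1 complex, 5 of 9 genes fell at 3 weeks (55.6%, against 7.88% of all genes). They were the 5 small subunits (Uqcrb, Uqcrh, Uqcrq, Uqcr10 and Uqcr11), with a median of -1.62. With scaling to the 75th percentile none of the 4 core and catalytic subunits (Uqcrc1, Uqcrc2, Uqcrfs1 and Cyc1) passed in any comparison, with medians of -0.44 at 3 weeks, -0.14 at 7 weeks and -0.01 between the low iron groups. At 7 weeks 4 of the 5 small subunits were higher than on normal diet (median 0.87), and all 5 were higher than at 3 weeks (median 2.54). Of the 9 genes these are 44.4% and 55.6%, against 10.7% and 17.6% of all genes. Before scaling, the 7 week medians against normal diet were 0.07 for the small subunits and -0.95 for the core and catalytic ones. Against 3 weeks, Uqcrc1 was lower at 7 weeks with quantile normalization (-0.89, adjusted p = 0.0271) and without scaling (-1.09, adjusted p = 0.0322), and so was Cyc1 (-1.30, adjusted p = 0.0155, and -1.38, adjusted p = 0.0248). This grouping was drawn up after the values were seen, and the difference between the classes was not tested.

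Uqcr10, which sits beside cytochrome c1, was at 6.17, 6.38 and 6.07 on normal diet, at 3.82, 3.37 and 4.26 at 3 weeks and at 6.88, 7.23 and 7.35 at 7 weeks. The groups did not overlap, with the 3 week arrays lowest and the 7 week arrays highest. Uqcr10 fell by 2.39 ± 0.30 at 3 weeks (adjusted p = 0.00794), was higher by 0.95 ± 0.30 at 7 weeks (adjusted p = 0.0411) and differed by 3.34 ± 0.30 between the low iron groups (adjusted p = 0.000389). Of its other probes, 1 gave -2.43, 0.91 and 3.34, and a dim one gave -0.35, 1.97 and 2.33. Uqcr11, the smallest subunit, was at 6.71, 6.95 and 6.66 on normal diet, at 4.57, 4.49 and 5.20 at 3 weeks and at 6.17, 8.22 and 7.96 at 7 weeks. It fell at 3 weeks (-2.02 ± 0.50, adjusted p = 0.035), and its 7 week arrays straddled normal diet, with replicate 1 below and replicates 2 and 3 above (0.68 ± 0.50, adjusted p = 0.326).

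Uqcrq, Uqcrh and Uqcrb followed the same course with a smaller spread. Uqcrq fell by 1.62 ± 0.25 (adjusted p = 0.0096) and at 7 weeks stood 0.91 ± 0.25 above normal diet (adjusted p = 0.0243). Uqcrh, the hinge protein that meets cytochrome c, fell by 1.22 ± 0.23 (adjusted p = 0.0157) and at 7 weeks stood 0.77 ± 0.23 above normal diet (adjusted p = 0.033), though at -0.04 without scaling. Uqcrb, a ubiquinone-binding subunit, fell by 1.11 ± 0.26 (adjusted p = 0.0281) and at 7 weeks stood 0.87 ± 0.26 above normal diet (adjusted p = 0.0331).

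Uqcrc1, a core protein, was at 6.20, 5.93 and 5.80 on normal diet, at 5.83, 6.24 and 6.40 at 3 weeks and at 5.75, 5.90 and 6.43 at 7 weeks, and all 3 groups overlapped. Its differences were 0.18 ± 0.29 at 3 weeks (adjusted p = 0.721) and 0.05 ± 0.29 at 7 weeks (adjusted p = 0.912). Cyc1, which holds the heme of cytochrome c1, was at 7.43, 7.29 and 6.73 on normal diet, at 6.32, 6.92 and 6.89 at 3 weeks and at 5.80, 6.18 and 6.90 at 7 weeks. Its groups overlapped, and the 7 week difference of -0.86 ± 0.36 had an adjusted p of 0.1, though it passed with quantile normalization (-1.03, adjusted p = 0.0481) and without scaling (-1.66, adjusted p = 0.0127). Uqcrfs1, the Rieske iron-sulfur protein, differed by -0.44 ± 0.29 at 3 weeks (adjusted p = 0.345) and by -0.33 ± 0.29 at 7 weeks (adjusted p = 0.414), where it passed without scaling (-1.13, adjusted p = 0.0309). Uqcrc2, the other core protein, lay below normal diet on all 3 arrays at 3 weeks (-0.60 ± 0.27, adjusted p = 0.174) and overlapped it at 7 weeks (0.07 ± 0.27).

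**Figure D3:**
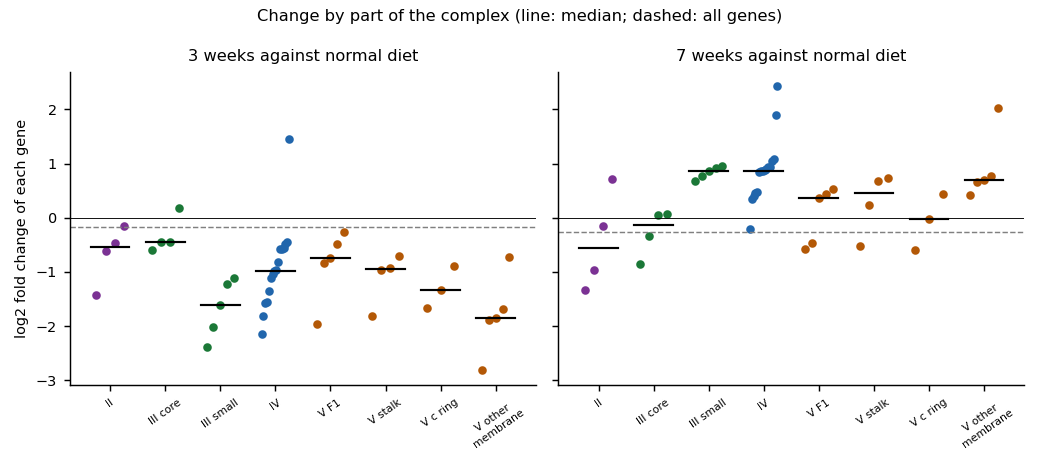
Log2 fold change against normal diet of each member (point) at 3 weeks (left) and 7 weeks (right), by its place in complexes II to V; the short line is the class median and the dashed line the median of all genes. At 3 weeks the 5 small subunits of complex III lie from -2.39 to -1.11 and its 4 core and catalytic subunits from -0.60 to 0.18. The size of the 7 week medians above 0 depends on scaling to the 75th percentile. Before scaling, those of the small complex III subunits and of complex IV were 0.07, and those of all complex V classes were below 0.

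Cycs codes for cytochrome c, the heme protein that carries electrons from complex III to complex IV. It was at 6.56, 6.79 and 6.62 on normal diet, at 5.48, 6.03 and 6.00 at 3 weeks and at 7.06, 7.77 and 7.70 at 7 weeks, with no overlap between groups. Neither difference from normal diet passed (-0.82 ± 0.29, adjusted p = 0.102, and 0.85 ± 0.29, adjusted p = 0.0551), while the difference between the low iron groups did (1.67 ± 0.29, adjusted p = 0.00297). A second, dimmer Cycs probe went the other way at 7 weeks, with -0.01 at 3 weeks and -1.38 at 7 weeks (adjusted p = 0.0706 over probes). Between the low iron groups it also gave -1.38 (adjusted p = 0.0608 over probes), so the direction of Cycs at 7 weeks depends on the probe. The members that bind heme or iron-sulfur clusters were 6: Sdhb, Sdhc, Sdhd, Uqcrfs1, Cyc1 and Cycs. Of these, 1 fell at 3 weeks and 1 at 7 weeks, or 16.7% each, against 7.88% and 18.7% of all genes. Their medians were -0.52 and -0.24, where those of all genes were -0.17 and -0.26. Of the 41 without iron, 18 fell at 3 weeks (43.9%, against 7.88% of all genes). At 7 weeks 14 of the 41 were higher (34.1%, against 10.7% of all genes). The medians of the 41 were -0.99 and 0.67. The difference between these groups was not tested.

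Complex IV, cytochrome c oxidase, had 16 tested genes, of which 6 fell at 3 weeks (37.5%, against 7.88% of all genes, median -0.97). At 7 weeks 7 were higher (43.8%, against 10.7% of all genes, median 0.87). At 7 against 3 weeks 15 were higher (93.8%, against 17.6% of all genes, median 1.94). The 6 that fell were Cox6c, Cox7b, Cox7c, Cox5b, Cox8a and Cox7a2, from -2.14 to -1.11. Cox6c, a small membrane subunit, was at 7.26, 7.37 and 7.22 on normal diet, at 5.08, 4.86 and 5.48 at 3 weeks and at 7.13, 8.19 and 7.92 at 7 weeks. Its 3 week arrays were far below both other groups, which overlapped, and it fell by 2.14 ± 0.33 (adjusted p = 0.00969). Cox5b, a zinc-binding subunit on the matrix side, was at 7.69, 7.53 and 7.17 on normal diet, at 5.80, 5.81 and 6.12 at 3 weeks and at 8.33, 8.47 and 8.39 at 7 weeks. It fell by 1.55 ± 0.25 at 3 weeks (adjusted p = 0.0121), and at 7 weeks it was 0.94 ± 0.25 above normal diet (adjusted p = 0.0243), a value of 0.25 with quantile normalization.

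Cox7b, on the X chromosome, was at 5.97, 6.09 and 5.34 on normal diet, at 3.86, 3.89 and 4.24 at 3 weeks and at 6.31, 6.64 and 6.96 at 7 weeks. It fell by 1.81 ± 0.30 (adjusted p = 0.0131) and was 2.64 ± 0.30 higher at 7 than at 3 weeks (adjusted p = 0.000575). Cox5a, which joins subunit 4 early in assembly, was below normal diet on all 3 arrays at 3 weeks without passing (-0.99 ± 0.30, adjusted p = 0.0648). Cox7c fell by 1.58 ± 0.31 (adjusted p = 0.0183), and at 7 weeks its 3 passing probes disagreed in sign (0.41, 1.06 and -0.47) with none past the threshold.

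Several complex IV subunits exist as paralogues with different tissue ranges, and these were compared within each array, where the scaling to the 75th percentile cancels. There were 9 pairs to test in 3 comparisons, 27 exact permutation tests in all, two-sided, with 0.1 the smallest p that 3 arrays against 3 allow. No pair could therefore pass at 0.05, and these tests cannot tell whether paralogues changed alike. After Benjamini-Hochberg adjustment over the 27, the lowest value was 0.225.

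At 7 weeks the largest unequal change among pairs well above background throughout normal diet and 7 week arrays was in Cox6b. Cox6b1, the broadly expressed form, was at 4.80, 4.74 and 4.41 on normal diet, at 3.25, 3.68 and 3.91 at 3 weeks and at 4.80, 5.58 and 6.15 at 7 weeks. Cox6b2, known as the testis form, was at 3.98, 3.90 and 3.80 on normal diet, at 3.19, 3.29 and 3.72 at 3 weeks and at 5.28, 6.67 and 7.01 at 7 weeks. Cox6b2 was well above background on all 9 arrays. It was the member with the largest 7 week rise, 2.43 ± 0.43 (adjusted p = 0.00567), and its lowest 7 week array was above every other array. Cox6b1 did not pass against normal diet (-1.04 ± 0.37, adjusted p = 0.101, and 0.86 ± 0.37, adjusted p = 0.107). Within arrays, the change of Cox6b1 minus that of Cox6b2 was -0.54 at 3 weeks and -1.56 at 7 weeks; the arrays did not overlap in either comparison (exact permutation p = 0.1 each, adjusted 0.225).

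Cox4i1, the common form of subunit 4, is set beside Cox4i2, its lung and hypoxia-linked form. Cox4i1 was at 7.59, 7.57 and 7.09 on normal diet, at 6.86, 6.82 and 6.87 at 3 weeks and at 8.52, 8.57 and 8.32 at 7 weeks. Cox4i2 was at 0.62, 0.82 and 0.79 on normal diet, at 0.19, -0.02 and -0.39 at 3 weeks and at 2.34, 1.57 and 0.94 at 7 weeks. In both genes the 3 groups did not overlap. Cox4i1 stood 1.05 ± 0.25 above normal diet at 7 weeks (adjusted p = 0.015), while Cox4i2 did not pass (0.88 ± 0.37, adjusted p = 0.0971), and the within-array difference of their changes was 0.18 with overlapping arrays (exact permutation p = 0.7), which does not show that they change alike.

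Of the Cox6a forms, Cox6a1, found in most tissues, was at 8.0, 8.14 and 7.97 on normal diet, at 7.41, 7.53 and 7.50 at 3 weeks and at 8.89, 8.94 and 8.84 at 7 weeks. Its small spread made a 7 week difference of 0.86 ± 0.22 pass (adjusted p = 0.0215), but it is the brightest member, at 49.8% of saturation, and with quantile normalization its value was 0.05. Cox6a2, the heart and muscle form, was at -2.89, -1.46 and -1.96 on normal diet, at -2.79, -2.18 and -2.68 at 3 weeks and at 1.36, -1.10 and -0.91 at 7 weeks. All 3 of its 7 week arrays lay above normal diet, replicate 1 far above, and the difference of 1.89 ± 0.64 did not pass (adjusted p = 0.0526), although it did after normexp background correction (1.87, adjusted p = 0.0293).

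Of the Cox7a forms, Cox7a2 was at 7.27, 7.10 and 6.88 on normal diet, at 5.74, 6.14 and 6.06 at 3 weeks and at 7.92, 7.95 and 8.08 at 7 weeks. Cox7a1, the heart and muscle form, was at -1.42, -0.93 and -1.18, then at -1.96, -1.56 and -1.74, and then at -0.04, -0.07 and -0.16. Cox7a2 fell at 3 weeks (-1.11 ± 0.25, adjusted p = 0.026) and Cox7a1 did not pass (-0.58 ± 0.25, adjusted p = 0.161); within arrays their changes differed by -0.53 without overlap (exact permutation p = 0.1). At 7 weeks Cox7a2 stood 0.90 ± 0.25 above normal diet (adjusted p = 0.0258) and Cox7a1 1.09 ± 0.25 (adjusted p = 0.0137). Cox7a2l, which takes part in joining complexes III and IV into supercomplexes, was at 6.72, 6.73 and 6.58 on normal diet, at 5.78, 5.58 and 5.79 at 3 weeks and at 7.55, 6.72 and 7.15 at 7 weeks. Its 3 week value was just short of the threshold (-0.96 ± 0.27, adjusted p = 0.0538), while its next brightest probe gave -1.01 (adjusted p = 0.0494 over probes), and the dimmest gave 0.32 (adjusted p = 0.546 over probes).

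Of the Cox8 forms, Cox8a was at 7.71, 7.87 and 7.74 on normal diet, at 6.30, 6.30 and 6.67 at 3 weeks and at 8.51, 8.87 and 8.72 at 7 weeks. It fell by 1.35 ± 0.24 (adjusted p = 0.0151) and at 7 weeks stood 0.93 ± 0.24 above normal diet (adjusted p = 0.0227), a value of 0.18 with quantile normalization. Cox8b, the heart and muscle form, was dim, at -4.96, -5.18 and -4.94 on normal diet, at -5.16, -0.49 and -5.05 at 3 weeks and at -5.26, -4.32 and -6.10 at 7 weeks. It was not well above background on any 7 week array, and its 3 week difference of 1.46 ± 1.10 came from replicate 2: without that array it was -0.08.

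**Figure D4:**
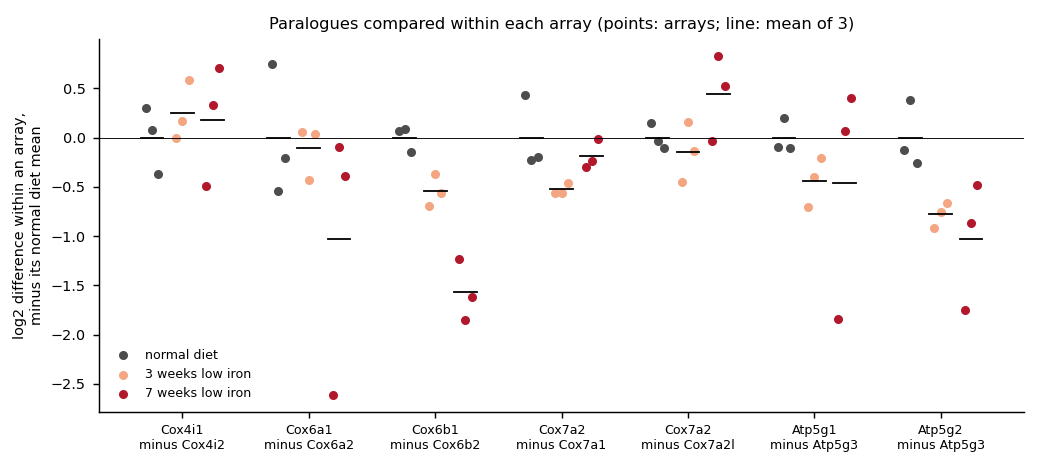
Difference in log2 signal between paralogues within each array (points, 3 arrays a group), set to 0 at the normal diet mean of each pair; lines are means. Cox6b1 minus Cox6b2 lies lower on all 3 arrays at 7 weeks than on any normal diet array, with a mean of -1.56.

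Complex V, the ATP synthase, had 17 tested genes, of which 7 fell at 3 weeks (41.2%, against 7.88% of all genes, median -0.97). At 7 weeks 3 were higher (17.6%, against 10.7% of all genes, median 0.43), a gap of few genes. At 7 against 3 weeks 11 were higher (64.7%, against 17.6% of all genes, median 1.64). All 17 had 3 week values below 0. Of the subunits of the membrane part outside the c ring (Atp5j2, Atp5k, Atp5l, Atp5md and Atp5mpl), which help the synthase form dimers and bend the membrane, 4 of 5 fell, with a median of -1.86. In the F1 head, which makes ATP, 1 of 5 fell (median -0.74), in the peripheral stalk 2 of 4 (median -0.95) and in the c ring 0 of 3 (median -1.33). In this order the shares that fell were 80%, 20%, 50% and 0%, against 7.88% of all genes, in classes of 3 to 5 genes. This division was also made after the values were seen and was not tested.

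Atp5k, the e subunit, was at 6.73, 6.85 and 6.55 on normal diet, at 3.78, 3.47 and 4.42 at 3 weeks and at 6.37, 7.94 and 7.81 at 7 weeks. Its 3 week fall of 2.82 ± 0.44 was the largest of all members (adjusted p = 0.0108), and the 7 week arrays straddled normal diet (0.66 ± 0.44, adjusted p = 0.277). Atp5l, the g subunit, was at 7.18, 7.35 and 7.15, then at 5.39, 5.04 and 5.67, and then at 8.0, 8.04 and 8.0. It fell by 1.86 ± 0.25 at 3 weeks (adjusted p = 0.00914) and stood 0.78 ± 0.25 above normal diet at 7 weeks (adjusted p = 0.0453), though at -0.02 without scaling. Atp5md was at 7.19, 7.24 and 7.08 on normal diet, at 5.06, 5.15 and 5.67 at 3 weeks and at 7.38, 7.68 and 7.72 at 7 weeks, and fell by 1.88 ± 0.26 (adjusted p = 0.00926). Atp5mpl, a very small proteolipid, fell by 1.69 ± 0.33 (adjusted p = 0.0178).

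Atp5j2, the f subunit, behaved differently by probe. Its brighter probe was at 6.28, 6.50 and 6.25 on normal diet, at 5.64, 5.98 and 5.23 at 3 weeks and at 8.60, 8.72 and 7.75 at 7 weeks, with no overlap between groups. By this probe Atp5j2 rose at 7 weeks (2.02 ± 0.34, adjusted p = 0.00473) and did not pass at 3 weeks (-0.73 ± 0.34, adjusted p = 0.183). Its other probe, nearly as bright, fell at 3 weeks (-2.07, adjusted p = 0.0103 over probes) and did not pass at 7 weeks (0.60, adjusted p = 0.171). Between the low iron groups the 2 probes gave 2.74 and 2.67.

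In the F1 head, Atp5e, the epsilon subunit, was at 6.86, 6.94 and 6.51 on normal diet, at 4.73, 4.60 and 5.10 at 3 weeks and at 6.29, 7.82 and 7.82 at 7 weeks. It fell by 1.96 ± 0.42 (adjusted p = 0.0239) and did not pass at 7 weeks (0.54 ± 0.42). Atp5a1 and Atp5b, the alpha and beta subunits that form the catalytic ring, did not pass at 3 weeks (-0.74 ± 0.28, adjusted p = 0.121, and -0.26 ± 0.23, adjusted p = 0.477), although the 3 week arrays of both lay below every normal diet array. Atp5c1, the gamma shaft, and Atp5d, the delta subunit, did not pass either (-0.84 ± 0.40 and -0.48 ± 0.33). At 7 weeks none of the 5 passed, with values from -0.58 to 0.54.

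In the peripheral stalk, which holds the head still, Atp5o and Atp5h fell at 3 weeks (-1.82 ± 0.39, adjusted p = 0.0231, and -0.93 ± 0.23, adjusted p = 0.0348). Atp5j was just short of the threshold (-0.97 ± 0.28, adjusted p = 0.0545), and Atp5pb did not pass (-0.70 ± 0.32, adjusted p = 0.183). At 7 weeks Atp5h stood 0.73 ± 0.23 above normal diet (adjusted p = 0.0419), though at -0.07 without scaling.

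Atp5g1, Atp5g2 and Atp5g3 code for the same mature c subunit of the ring. Atp5g1 was at 6.41, 6.71 and 6.34 on normal diet, at 4.84, 5.05 and 5.60 at 3 weeks and at 4.49, 7.43 and 7.47 at 7 weeks. Atp5g2 was at 6.47, 6.99 and 6.28, then at 4.72, 4.79 and 5.23, and then at 4.68, 6.59 and 6.68. Atp5g3 was at 7.92, 7.93 and 7.86, then at 6.96, 6.87 and 7.22, and then at 7.75, 8.78 and 8.49. In all 3 genes the 3 week arrays lay below normal diet and 7 week replicate 1 below the other two 7 week arrays. None passed at 3 weeks (-1.33 ± 0.71, -1.67 ± 0.51 and -0.89 ± 0.31, adjusted p from 0.0673 to 0.243), and without 7 week replicate 1 all 3 did (adjusted p = 0.0109, 0.00664 and 0.0207). Within arrays, the change of Atp5g2 minus that of Atp5g3 was -0.78 at 3 weeks and -1.03 at 7 weeks, without overlap (exact permutation p = 0.1 each, adjusted 0.225), but -0.31 at 7 weeks with quantile normalization. With all arrays, Atp5g1 and Atp5g3 did not pass at 7 weeks against normal diet (-0.03 ± 0.71, adjusted p = 0.971, and 0.43 ± 0.31, adjusted p = 0.304). Before scaling these values were -0.83 and -0.37. Only without replicate 1, the lowest 7 week array in both, did they stand above normal diet (0.96, adjusted p = 0.0339, and 0.73, adjusted p = 0.0436).

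**Figure D5:**
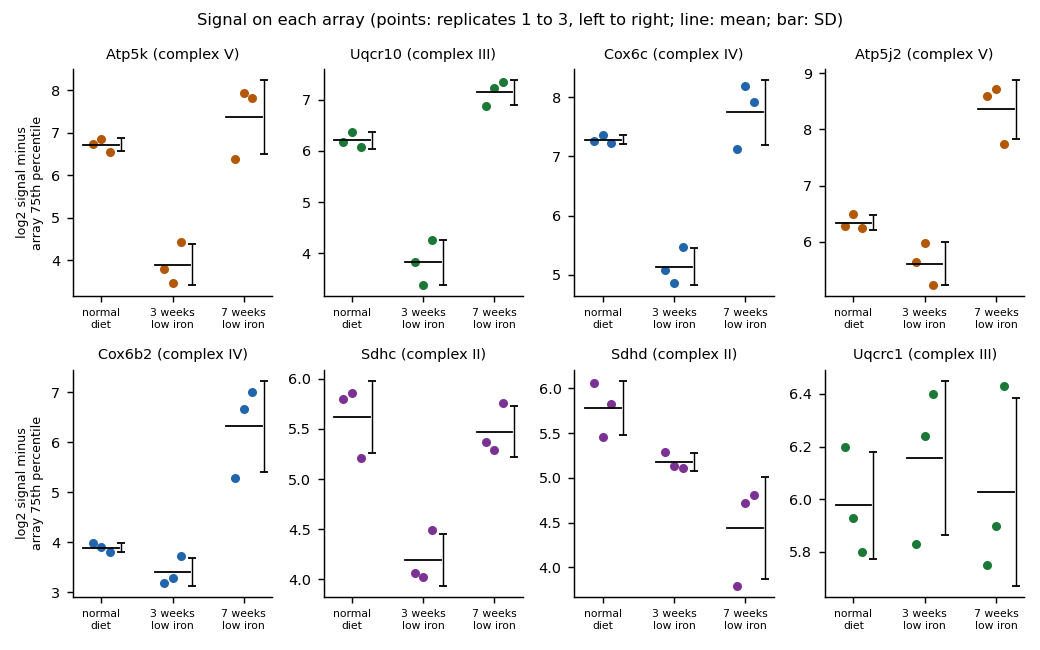
Log2 signal minus the array's 75th percentile on each array (points, replicates 1 to 3 from left to right) for 8 members, with the mean (line) and SD (bar) of each group of 3. In Atp5k, Uqcr10 and Cox6c the 3 week arrays lie below all others; in Atp5j2 and Cox6b2 the 7 week arrays lie above all others; Sdhd is lowest at 7 weeks, and the groups of Uqcrc1 overlap.

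How many members passed depended on single arrays. Their median relative to all genes stayed between -0.81 and -0.73 at 3 weeks and between 0.72 and 1.03 at 7 weeks without each array. The share of all genes passing without each array is not given here, so the counts below do not set the members apart. At 3 weeks the count of 19 became 9, 4 and 10 without normal diet replicates 1, 2 and 3, 8 and 5 without 3 week replicates 1 and 2, and 29 without 7 week replicate 1. Uqcr10, Cox6c, Atp5l and Atp5md passed without each of the 9 arrays in turn. At 7 weeks the count of 15 became 3, 8 and 2 without normal diet replicates 1, 2 and 3 and 25 without 7 week replicate 1, and Cox6b2 and Atp5j2 passed without each array. With normal diet replicates 1 and 2 left out, the arrays that go against their label, the control is 1 array, taken to vary like the arrays of the other groups. That fit called 0 and 1 of all genes at 3 and 7 weeks, and 0 members by limma (15 and 10 at an unadjusted p under 0.05), so its counts say nothing about the members. The members' median relative to all genes was then -0.70 at 3 weeks and 1.00 at 7 weeks, against -0.78 and 0.93 with all 3 controls. Of the 34 genes higher at 7 than at 3 weeks, 31 passed without each array in turn.

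Genes around the respiratory chain gave mixed counts. Of 36 complex I subunits tested, 22 fell at 3 weeks (61.1%, against 7.88% of all genes, median -1.25). At 7 weeks 11 were higher and 1 lower (30.6% and 2.78%, against 10.7% and 18.7% of all genes, median 0.68). Ndufa4, a complex IV subunit whose name falls outside the rule, fell by 1.21 ± 0.25 at 3 weeks (adjusted p = 0.0226). Atpif1, the inhibitor of the ATP synthase, was higher at 7 weeks (0.94 ± 0.24, adjusted p = 0.0187). Of 33 assembly factors of complexes II to V tested, 8 fell (24.2%, against 7.88% of all genes) and 1 rose at 3 weeks. At 7 weeks 6 were lower and 5 higher, or 18.2% and 15.2%, near the 18.7% and 10.7% of all genes. Those that fell at 3 weeks included the copper chaperone Cox17 (-1.79 ± 0.31, adjusted p = 0.0138), Cmc1 (-2.23 ± 0.38, adjusted p = 0.0137), Sco1, Coa3 and Cox20, and Coa5 rose (1.70 ± 0.37, adjusted p = 0.0242). Sdhaf2, which attaches the flavin to Sdha, was lower at both times (-1.27 ± 0.29, adjusted p = 0.0268, and -2.03 ± 0.29, adjusted p = 0.00286). At 7 weeks Cox15, which makes heme a, was lower (-2.09 ± 0.33, adjusted p = 0.00387), and Cox14 and Cox16 were higher (1.23 and 1.39, adjusted p = 0.00971 and 0.0067).

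Of 15 tested regulators of respiratory chain genes, 3 fell (20%, against 7.88% of all genes) and 0 rose at 3 weeks. At 7 weeks 4 were lower and 2 higher, or 26.7% and 13.3%, against 18.7% and 10.7% of all genes, a gap of few genes in a list of this size. Gabpb1, a partner of the Ets factor Gabpa, fell by 1.56 ± 0.30 at 3 weeks (adjusted p = 0.0178), as did Hcfc1 (-1.34 ± 0.29, adjusted p = 0.0236) and Chchd2 (-1.16 ± 0.24, adjusted p = 0.0198). Nrf1 did not pass at either time (-0.50 ± 0.33 and -0.12 ± 0.33). At 7 weeks Tfb1m, a mitochondrial rRNA methyltransferase, and Yy1 were lower (-3.06 ± 0.47, adjusted p = 0.00384, and -1.87 ± 0.32, adjusted p = 0.00509), and Polrmt, the mitochondrial RNA polymerase, was higher (1.13 ± 0.28, adjusted p = 0.0168). Of 12 tested partners in heme, copper and nucleotide transport, 1 fell at 3 weeks, the copper importer Slc31a1 (-1.68 ± 0.44, adjusted p = 0.0414). At 7 weeks 2 were lower, Cox15 and the channel Vdac1 (-1.74 ± 0.56, adjusted p = 0.0438). These shares, 8.33% and 16.7%, were near the 7.88% and 18.7% of all genes.

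Markers of other marrow cells also moved between the groups. Of 14 monocyte and macrophage markers, 4 were higher at 3 weeks (28.6%, against 3.52% of all genes). At 7 weeks 3 were lower (21.4%, near the 18.7% of all genes). At 7 against 3 weeks 8 were lower (57.1%, against 19.6% of all genes), beside the 34 members that were higher. The summed level of these markers, in units of the array's 75th percentile, was 46.8 to 71.0 on normal diet, 82.9 to 115 at 3 weeks and 31.4 to 35.4 at 7 weeks. Of 16 neutrophil markers, 3 were higher at 3 weeks (18.8%, against 3.52% of all genes). At 7 against 3 weeks 7 were lower and 2 higher (43.8% and 12.5%, against 19.6% and 17.6% of all genes). The neutrophil sums were 461.1 to 912.3, 461 to 648.9 and 580.6 to 850.8, and all 16 were detected on every normal diet and 3 week array. B lineage markers summed to 10.4 to 15.5, 16 to 31.5 and 6.38 to 18.6, and 2 of the 10 tested were higher at 3 weeks (20%, against 3.52% of all genes). Markers of T and NK cells summed to 19.3 to 21.4, 18.7 to 29.0 and 23.3 to 43.4, of megakaryocytes to 25.1 to 61.0, 27.1 to 78.6 and 14.3 to 46.1, and of mast cells, basophils and eosinophils to 23.1 to 36.0, 5.38 to 47.9 and 5.90 to 12.3. The 14 erythroblast markers summed to 2590 to 2798, 2245 to 2394 and 3061 to 4763, with 0 passing at 3 weeks. At 7 weeks 3 of them were higher and 2 lower (21.4% and 14.3%, against 10.7% and 18.7% of all genes). The part of these cells in the members' differences was not tested.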

How the data were processed

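Per the labels' protocols, total RNA of sorted erythroblasts was amplified and labelled with Cy3. Scanner output as deposited holds 1-colour spot intensity, background-subtracted by Agilent Feature Extraction 10.7.3.1 per the file headers, and arrays are not scaled to each other. A second deposited table gives log2 values, centred per probe (r with the scanner values 0.997 to 0.999; array medians 0, and -0.019 for 7 week replicate 2); how the authors normalized between arrays before that is not given in the sources used here. It served as an alternative.

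Spots marked as outliers were left out, and log2 intensity minus the array's 75th percentile was averaged where a probe had several spots. Gene names came through the probes' RefSeq accessions and a gene table of GRCm38.p6. A probe entered where every array of some group had it well above background, and the brightest such probe stood for its gene; 17 members had over 1 such probe, and none disagreed in sign past the threshold. The 3 comparisons came from 1 model over 9 arrays in limma 3.58.1 under R 4.3.3 (two-sided, by lmFit and eBayes), and p-values were Benjamini-Hochberg adjusted over 14506 genes and a threshold of 0.05. The fit was tested on simulated data. Paralogues were compared by the difference of their log2 intensity within an array with an exact permutation test. The number of arrays limits the precision. Sums of markers are of linear intensity over the 75th percentile.

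Alternatives were normexp background correction (offset 50, on median signals, since mean signals were not used here), quantile, median and no scaling, other filters and probe rules, the second table, fits to 2 groups, a replicate block, leaving out both normal diet arrays that go against their label, and leaving out each array in turn. Members and lists were chosen with earlier results of these data known. All members may be named; values on each array are given for complex II, Cycs, Cyc1, the paralogues and the 6 largest changes in each direction of each comparison, and those of Uqcrc1 were added after they were seen. Genes that are no member come from the lists, and of those only ones past the threshold or the first 3 of a list.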

Additional observations from a re-analysis of the deposited data

Results flagged for a closer look

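For 34 members the difference from normal diet was not the same at 3 and at 7 weeks, by limma's test of 7 against 3 weeks (adjusted p from 0.000389 to 0.0399). In each the 7 week level was the higher on the probe that stood for the gene. The values are log2 differences of the 7 week from the 3 week groups, and the normal diet arrays cancel in them. In complex V they were 3.48 for Atp5k, 2.74 for Atp5j2, 2.64 for Atp5l, 2.50 for Atp5e, 2.39 for Atp5mpl, 2.30 for Atp5md, 2.05 for Atp5o, 1.66 for Atp5h, 1.64 for Atp5j, 1.32 for Atp5g3 and 0.69 for Atp5b. Those of complex III were 3.34 for Uqcr10, 2.70 for Uqcr11, 2.54 for Uqcrq, 1.99 for Uqcrh and 1.98 for Uqcrb. In complex IV they were 2.92 for Cox6b2, 2.64 for Cox7b, 2.60 for Cox6c, 2.49 for Cox5b, 2.33 for Cox6a2, 2.28 for Cox8a, 2.01 for Cox7a2, 1.99 for Cox7c, 1.90 for Cox6b1, 1.69 for Cox4i2, 1.66 for Cox7a1, 1.62 for Cox4i1, 1.42 for Cox7a2l, 1.41 for Cox6a1 and 1.33 for Cox5a. Cycs had 1.67, Sdhc 1.28 and Sdhb 0.88. Other probes went the opposite way without passing for Cycs (-1.38, adjusted p = 0.0608 over probes) and Cox7a2l (-0.52, adjusted p = 0.23 over probes). Second probes of Sdhc and Sdhb gave 0.50 and 0.32 and did not pass (adjusted p = 0.187 and 0.41 over probes). The values of Atp5b and Sdhb turned negative under quantile normalization and without scaling.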

How the results depend on the processing

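Counts of members called (19 at 3 weeks, 15 at 7 weeks and 34 between the low iron groups) stayed within 1.5 times those values under normexp, median scaling, either filter, the mean of probes, the deposited log2 table and the replicate block. Quantile normalization gave 5 at 7 weeks, no scaling 12, 10 and 22, fits to the 2 groups compared 30 and 4 at 3 and 7 weeks, and leaving out normal diet replicates 1 and 2 together 0 and 0, in a fit with 1 control array that called 0 and 1 of all genes. Leaving out each array gave 4 to 29, 2 to 25 and 31 to 38, and the shares of all genes passing in those fits are not given here. Replicate numbers did not pair the samples (correlations of their deviations from -0.17 to 0.29), and with the replicate block the counts were 18, 12 and 32.

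The members' median relative to all genes (-0.78, 0.93 and 1.79) was -0.40, 0.42 and 0.93 with quantile normalization, and 0.50 at 7 weeks with normexp and 0.52 with no filter; leaving out arrays gave -0.81 to -0.73, 0.72 to 1.03 and 1.70 to 1.86. For complex II (-0.36, -0.29 and 0.32) it turned to 0.04 at 3 weeks and -0.24 between the low iron groups with quantile normalization and to -0.04 between them with no filter, and at 7 weeks was -0.61 with normexp and -0.69 with no filter. For complex III (-0.94, 0.94 and 2.11) it was 0.30 at 7 weeks and 0.93 between the low iron groups with quantile normalization, 0.51 at 7 weeks with normexp, and 0.52 to 1.03 at 7 weeks without each array. For complex IV (-0.80, 1.14 and 2.07) it was -0.51, 0.55 and 1.43 with quantile normalization, 0.72 and 1.83 at 7 weeks and between the low iron groups with normexp, and 0.73 and 1.72 with no filter. For complex V (1.77 between the low iron groups) it was 0.88 with quantile normalization.

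Of the single-gene values, 1319 of 1548 kept direction and side of the threshold under the other settings and 1097 of 1269 without each array; 58 and 14 changed sign, and none of these was past the threshold before and after. The cause was not tested. Of 378 paralogue values, 12 moved by more than the spread between arrays. Of these 12, 9 were under quantile normalization, where 18 other values did not move.

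Without scaling, signs turned at 7 weeks for Atp5b (-0.38), Atp5d (-0.45), Atp5e (-0.27), Atp5g3 (-0.37), Atp5h (-0.07), Atp5j (-0.13), Atp5k (-0.14), Atp5l (-0.02), Atp5md (-0.38), Atp5mpl (-0.11), Atp5o (-0.58), Cox5a (-0.46), Cox6c (-0.34), Cox7a2l (-0.34), Cox7c (-0.39), Sdhb (-0.09), Uqcr11 (-0.13), Uqcrc1 (-0.76), Uqcrc2 (-0.74) and Uqcrh (-0.04). Between the low iron groups they turned for Atp5a1 (-0.69), Atp5b (-0.28), Atp5c1 (-0.70), Atp5d (-0.13), Atp5pb (-0.80), Sdhb (-0.09), Uqcrc2 (-0.30) and Uqcrfs1 (-0.85).

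With quantile normalization, signs turned at 3 weeks for Atp5b (0.17), Atp5d (0.20), Cox4i1 (0.09), Cyc1 (0.27), Sdha (0.07), Sdhb (0.60), Uqcrc2 (0.02) and Uqcrfs1 (0.27), at 7 weeks for Atp5b (-0.33), Atp5g3 (-0.34), Atp5md (-0.06), Cox5a (-0.07), Cox6c (-0.08) and Cox7c (-0.05), and between the low iron groups for Atp5a1 (-0.65), Atp5b (-0.51), Atp5c1 (-0.55), Atp5pb (-0.46), Sdhb (-0.21) and Uqcrfs1 (-0.70).

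Under normexp they turned for Sdhb at 3 weeks (0.01), for Atp5g1 (0.10), Cox8b (0.49) and Uqcrc1 (-0.10) at 7 weeks and for Uqcrfs1 between the low iron groups (-0.06). The mean of probes turned Sdhb at 3 weeks (0.10) and Cycs at 7 weeks (-0.27). Without normal diet replicates 1 and 2, Sdhb at 3 weeks (0.04) and Atp5g1 (0.12) and Sdhc (0.26) at 7 weeks turned. Leaving out 1 array at a time, values on both sides of 0 were found at 3 weeks for Sdhb (-0.27 to 0.04) and Cox8b (-0.08 to 2.25), at 7 weeks for Atp5g1 (-0.53 to 0.96), Atp5g2 (-0.95 to 0.06), Atp5o (-0.05 to 0.64), Cox8b (-0.65 to 0.24), Uqcrc1 (-0.15 to 0.19) and Uqcrc2 (-0.10 to 0.17), and between the low iron groups for Uqcrc1 (-0.33 to 0.01), Atp5c1 (-0.07 to 0.74), Atp5pb (-0.01 to 0.44) and Uqcrfs1 (-0.13 to 0.32).

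Signal over background limited Cox7b2 and Cox8c, well above background on 0 and 1 arrays, and Cox8b, on 3 of 3 normal diet arrays, 2 of 3 at 3 weeks and 0 of 3 at 7 weeks.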
